A study of Mus musculus with 4 samples.

Results

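The C/EBP transcription factor genes and the Tribbles pseudokinase genes were compared between bone marrow of mice with MN1 leukemia and mature myeloid marrow cells of healthy mice. The members were every probe set whose platform symbol was one of 9 genes, Cebpa, Cebpb, Cebpd, Cebpe, Cebpg, Cebpz, Trib1, Trib2 and Trib3. The rule reads symbols and no signal, though the 9 genes were named with earlier results of these data known. Of these genes, 7 had a probe set naming them here, with 15 probe sets in all among 45037 probe sets that are not controls and 18193 genes named on the array. Cebpe and Cebpz had no probe set naming them here, and they were not analysed here. Both groups, MN1 leukemic and Gr1/Mac1, came from C57BL/6J mice, with 2 arrays of biological replicates each, per the study's design text. For the leukemic group, MN1 was carried by a retrovirus into marrow from mice given 150 mg/kg 5-fluorouracil 4 days earlier, and the cells were grown for 48 hours with murine IL-3, human IL-6 and murine stem cell factor. GFP-positive cells were sorted and injected into syngeneic mice that had received 750 cGy, together with a protective dose of normal marrow. No sort of the leukemic marrow at harvest is described in the sources used here, so cells of the host and of the protective dose may be in it. The Gr1/Mac1 cells, called mature below, were chosen by Gr1 and CD11b, antigens of granulocytes and monocytes, and came from healthy mice per the design text, although the labels repeat the same treatment protocol for them. Ages of the animals are not stated. Since no group of normal immature cells was profiled here, an effect of MN1 cannot be told apart from one of maturity.

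C/EBP proteins are basic leucine zipper factors that bind DNA as dimers. In myeloid cells C/EBP alpha is needed for the step from the common to the granulocyte-macrophage progenitor, C/EBP epsilon for the late granule stages, and C/EBP beta and delta for emergency granulopoiesis and for inflammatory genes. C/EBP gamma lacks a transactivation domain, and the product of Cebpz is a CCAAT-binding protein without the family's zipper. Tribbles proteins are kinase-like scaffolds. Trib1 and Trib2 bring C/EBP alpha to the ubiquitin ligase COP1 for degradation, and each can cause acute myeloid leukemia in mice when overexpressed. Trib3, a gene of the stress response driven by ATF4 and CHOP, has not been found to act on C/EBP alpha in that way.

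The array values are MAS5 signals on a linear scale. They were tested as log2(signal + 16) with limma over 12378 genes, each represented by its brightest probe set. Positive log2 fold changes mean a higher level in leukemic marrow, and the added 16 understates the change of dim genes. Of all tested genes 43.4% passed at an adjusted p under 0.05, 27.5% as higher and 15.9% as lower, and the median log2 fold change was 0.28. Scaling moved that split. Of the genes that passed, 63.3% were higher, against 49.4% with every array at the same median and 14.4% with arrays scaled to the hybridization controls, where the median over all genes was -1.02. In that last setting 7133 of 12409 tested genes passed, 6104 lower and 1029 higher. Each gene count below from that setting is to be read beside these. For beta-actin the ratio of 3′ to 5′ signal, which reflects RNA and labelling quality, was 3.09 to 3.28 in the leukemic and 1.32 to 1.39 in the mature arrays, and its part in the results below was not tested. Mature replicate 2 stood apart in the Y-linked gene Eif2s3y, with a signal of 4409 against 2.51 to 3.01 on the other 3 arrays. It also stood apart in the X-linked gene Xist, with 114 against 7138 to 19642. The mature replicates thus differed in these sex-linked genes, and the part of this in the results was not tested. The endogenous gene probe set of Mn1, the introduced gene, read 17.7 and 92.6 on the leukemic against 3.92 and 12.1 on the mature arrays, lay below the filter and was not tested, and whether it reads the introduced sequence is not known.

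Of the members, Cebpb, Cebpd and Trib1 fell and Trib2 rose, while Cebpa, Cebpg and Trib3 did not pass. All 7 genes were tested and 4 passed, 3 lower and 1 higher, beside the 43.4% of all genes that passed. In those 4 genes the arrays of the groups did not overlap, which held for 74.2% of all genes, 45.9% with the leukemic arrays higher and 28.3% with them lower. Read probe set by probe set, 12 of 15 passed the filter on low signals and 7 of them were called, 6 lower and 1 higher, beside 34.9% of all 27022 tested probe sets, 21.2% higher and 13.6% lower. In 8 of the 12 the arrays did not overlap, beside 70% of all tested probe sets, 41.4% higher and 28.6% lower. The probe sets of Trib1, the brighter of Trib2 and the dimmer of Cebpb were above the filter only through the group where they are high, so these counts are a description.

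**Figure D1:**
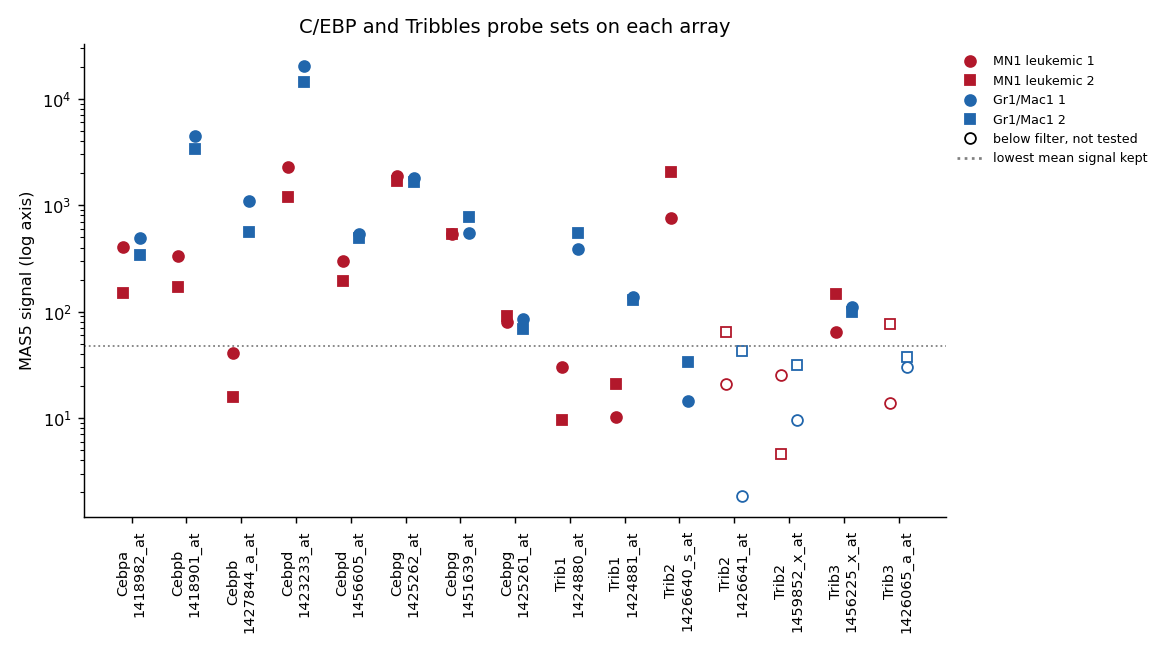
MAS5 signal on a log axis for each of the 15 probe sets on each of the 4 arrays, leukemic in red and mature in blue, with replicate 1 as circles and replicate 2 as squares. Open symbols are the 3 probe sets below the filter, and the dotted line is the lowest mean signal kept. Cebpb, Cebpd and Trib1 lie lower and the brighter Trib2 probe set lies higher in both leukemic arrays.

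The inflammatory C/EBP genes were much lower in leukemic marrow. Cebpb, whose product drives macrophage and emergency granulocyte programs, gave signals of 336 and 170 on the leukemic against 4441 and 3356 on the mature arrays. Both leukemic arrays lay far below both mature arrays, and the log2 fold change was -3.92 (SE 0.35, limma adjusted p = 5.4e-04). Its other probe set (1427844_a_at) showed the same, with 40.9 and 15.7 against 1099 and 563 and a log2 fold change of -4.24 (SE 0.48, adjusted p = 0.0013 over probe sets). In these bulk samples, fewer cells of a type and less RNA per cell cannot be told apart. The mature cells were themselves chosen by myeloid antigens, and the part of that choice was not tested.

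Cebpd, which is induced by cytokines and acts with Cebpb, was also lower. Its brightest probe set read 2267 and 1192 on the leukemic against 20537 and 14503 on the mature arrays. The groups were far apart, with a log2 fold change of -3.38 (SE 0.35, adjusted p = 8.2e-04). The dimmer probe set (1456605_at) read 297 and 192 against 538 and 491, a smaller difference of -1.05 (SE 0.32, adjusted p = 0.042 over probe sets). Leaving out any 1 array lost that second call (-1.35 to -0.76), as did using no filter or no variance trend, so the size of the Cebpd change differs between its probe sets while both lie lower in leukemic marrow.

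Cebpa, the factor that Trib1 and Trib2 degrade, read 400.4 and 148 on the leukemic against 487 and 337 on the mature arrays. Leukemic replicate 1 lay between the mature arrays and leukemic replicate 2 below both, so the groups overlap. The log2 fold change was -0.69 (SE 0.48, 95% interval -1.83 to 0.45, adjusted p = 0.29). Leukemic replicate 2 set the size, since the value was -0.02 without it and -1.36 without leukemic replicate 1 (adjusted p = 0.99 and 0.090). With arrays scaled to the hybridization controls Cebpa was lower by the test (-1.94, adjusted p = 0.012), in a setting where most of the called genes are lower.

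Cebpg, which encodes the family member without a transactivation domain, had close signals on all arrays. Its brightest probe set read 1860 and 1672 on the leukemic against 1799 and 1637 on the mature arrays, with overlapping groups and a log2 fold change of 0.04 (SE 0.22, 95% interval -0.49 to 0.57, adjusted p = 0.91). The other probe sets gave -0.26 and 0.13, and neither passed (adjusted p = 0.52 and 0.84). The sign of Cebpg has no meaning at this size and turned in 5 of 16 alternatives. Scaled to the hybridization controls it was called lower (-1.28, adjusted p = 0.0030), a value near the -1.02 of the median gene there.

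Trib1 and Trib2, which share the ability to degrade C/EBP alpha, went in opposite directions. Trib1 read 30.2 and 9.58 on the leukemic against 386 and 551 on the mature arrays, a log2 fold change of -3.79 (SE 0.47, adjusted p = 0.0014). Its other probe set (1424881_at) read 10.2 and 21.0 against 137 and 128 (-2.25, SE 0.50, adjusted p = 0.013 over probe sets), a call lost without leukemic replicate 1 (adjusted p = 0.072) or replicate 2 (0.0502). Trib1 was thus near the bottom of the scale on both leukemic arrays and clearly above it on both mature arrays.

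Trib2 read 757 and 2039 on the leukemic against 14.6 and 33.9 on the mature arrays. Both leukemic arrays lay far above both mature arrays, with a log2 fold change of 5.01 (SE 0.53, adjusted p = 8.4e-04), and the mature signals were dim. This rests on 1 probe set (1426640_s_at), whose suffix marks probes that can match several transcripts. The other probe sets naming Trib2 lay below the filter and were not tested, at 21.0 and 63.7 against 1.85 and 42.8 (1426641_at) and at 25.3 and 4.63 against 9.49 and 31.3 (1459852_x_at). In both of these the groups overlap. When probe sets with such suffixes were left out, no probe set of Trib2 remained to be tested.

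Trib3 did not pass and its leukemic arrays differed from each other. Its brighter probe set read 64.2 and 148 on the leukemic against 110 and 99.9 on the mature arrays, so the leukemic arrays lay on either side of the mature ones. The log2 fold change was -0.07 (SE 0.49, 95% interval -1.23 to 1.09, adjusted p = 0.92), and it turned to 0.44 without leukemic replicate 1. The dimmer probe set, below the filter, read 13.7 and 75.9 against 30.3 and 37.5, again with the leukemic arrays on both sides.

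**Figure D2:**
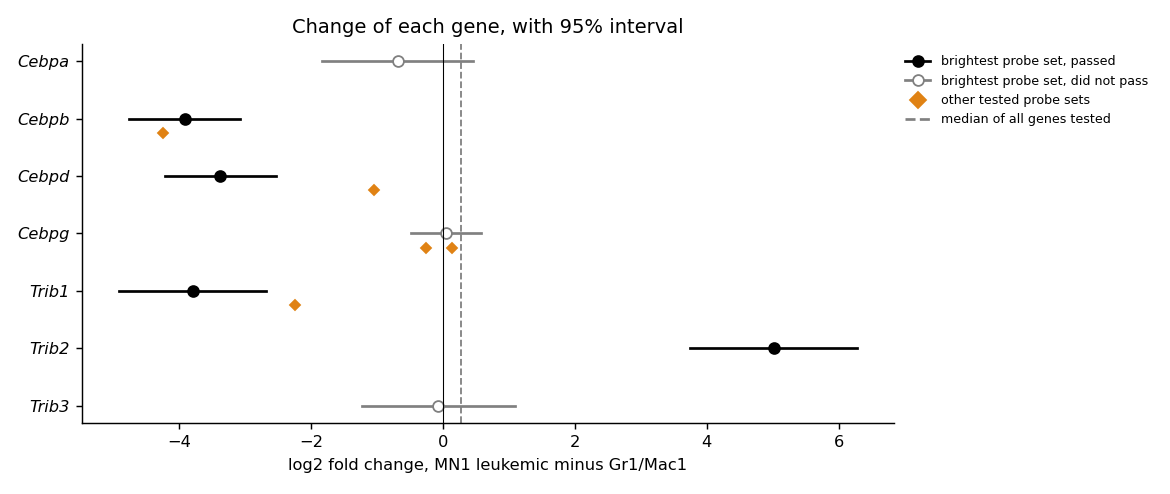
Log2 fold change of each gene from its brightest probe set (circles) with its 95% interval, filled where it passed, and of the other tested probe sets (orange diamonds). The dashed line is the median of all tested genes at 0.28. Cebpb, Cebpd and Trib1 lie near -4 to -3, Trib2 lies at 5.01, and the intervals of Cebpa, Cebpg and Trib3 include 0.

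The DNA before the start of Trib2, Cebpb and Cebpa is shown because these genes rose, fell and did not pass. Each sequence is the 250 bases upstream of the RefSeq start in build GRCm38.p6, on the strand of the gene. They lie at chr12:15816786-15817035 on the minus strand, chr2:167688665-167688914 on the plus strand and chr7:35119043-35119292 on the plus strand. Capitals mark letters that match 1 of 6 motifs searched on both strands. For C/EBP the letters were TTGCNNAA, for a C/EBP-ATF pair TGATGNAA, for PBX-HOX TGATTNAT, for MEIS TGACAG, for the TATA box TATAAA and for the CCAAT box CCAAT, with overlaps allowed, and they were chosen with the sequences in view.
Trib2: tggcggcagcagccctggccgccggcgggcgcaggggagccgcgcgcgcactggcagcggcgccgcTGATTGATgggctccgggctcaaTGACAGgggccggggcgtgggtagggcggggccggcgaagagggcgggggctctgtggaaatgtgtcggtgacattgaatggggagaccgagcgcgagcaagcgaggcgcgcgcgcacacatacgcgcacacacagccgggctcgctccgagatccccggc
Cebpb: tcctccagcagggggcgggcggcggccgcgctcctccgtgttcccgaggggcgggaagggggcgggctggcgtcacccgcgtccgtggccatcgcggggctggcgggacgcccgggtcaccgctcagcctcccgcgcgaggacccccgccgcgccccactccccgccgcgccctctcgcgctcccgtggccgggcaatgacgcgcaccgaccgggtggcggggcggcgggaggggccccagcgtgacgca
Cebpa: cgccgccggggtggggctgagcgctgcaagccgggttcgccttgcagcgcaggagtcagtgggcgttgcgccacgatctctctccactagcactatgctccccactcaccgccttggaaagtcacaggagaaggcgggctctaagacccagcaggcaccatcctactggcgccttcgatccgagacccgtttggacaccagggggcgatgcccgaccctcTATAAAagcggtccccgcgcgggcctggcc
In the Trib2 window the first capitals, 184 to 177 bases before the start, are a PBX-HOX match, and the others, 161 to 156 bases before it, a MEIS match. Of 32851 RefSeq promoters of the same length, 2.82% held the PBX-HOX letters and 15.9% the MEIS letters. As the motifs were picked with the sequences in view, these shares do not measure how unusual the matches are. The Cebpa window held a TATA box 30 to 25 bases before the start, which 12.4% of promoters hold in some place, and the Cebpb window held none of the 6. The C/EBP letters, present in 9.56% of promoters, were in none of the 3 windows. Entries were found for 5 of the 9 genes, and those of Cebpg and Trib3 are not printed. A match of letters is a description and shows no binding.

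Members were also set against each other on the same array. Values are log2(signal + 16) of the first gene minus that of the second, and only their change between groups can be read, since probe sets differ in brightness for the same RNA. Because 16 is added to each signal, the scaling of an array does not cancel fully for dim genes such as Trib1, and these differences were not computed under other scalings. Cebpa minus Cebpb was 0.24 and -0.18 on the leukemic against -3.15 and -3.26 on the mature arrays, so the balance shifted toward Cebpa by 3.23 with no overlap. Cebpa minus Trib1 was 3.17 and 2.68 against 0.32 and -0.68, a shift of 3.11. Cebpa minus Trib2 was -0.89 and -3.65 against 4.04 and 2.82, a shift of -5.70 toward Trib2. The largest of the 5 shifts was that of Trib2 minus Trib1, with 4.06 and 6.33 against -3.71 and -3.51. Cebpb minus Cebpd moved least, from -2.21 and -2.11 in the mature to -2.70 in both leukemic arrays. The smallest p of an exact permutation test (two-sided) on 2 against 2 arrays is 0.33, and each of the 5 gave that value. A planned pair of Cebpa and Cebpe was not computed, since no probe set named Cebpe here.

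**Figure D3:**
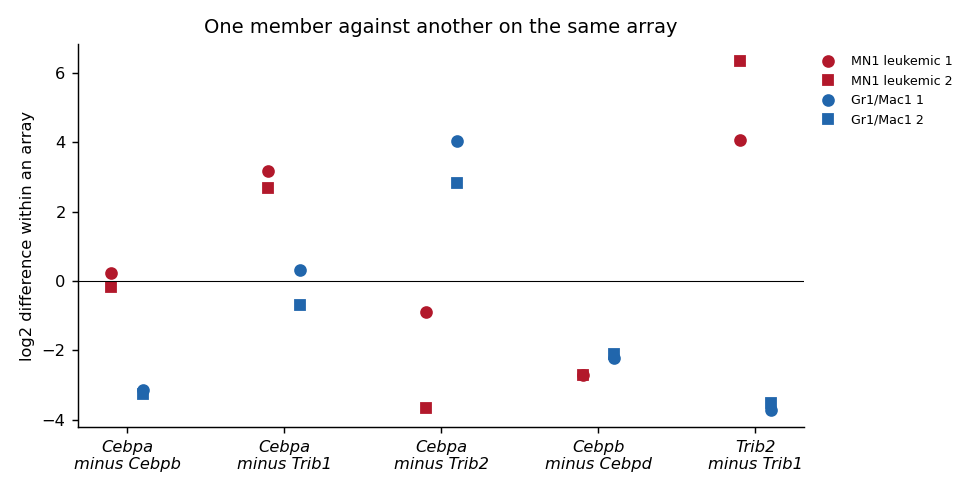
Log2(signal + 16) of 1 member minus another on the same array, for 5 pairs, with leukemic arrays in red and mature arrays in blue. The vertical position of a pair has no meaning of its own, and the gap between red and blue is the shift, 8.81 for Trib2 minus Trib1 and -0.54 for Cebpb minus Cebpd.

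For 6 of the 7 genes the leukemic arrays differed by more than the median gene did. On the log2 scale, replicate 1 was above replicate 2 by 1.35 for Cebpa, 0.92 for Cebpb, 0.92 for Cebpd and 0.85 for Trib1, and below it by a difference of -1.41 for Trib2 and -1.03 for Trib3. Differences as large as that of Trib2 were seen in 3.26% of tested genes, and as large as that of Cebpa in 3.67%, while the median absolute difference over all genes was 0.25. Cebpg differed by 0.15. Like Cebpa, Cebpb, Cebpd and Trib1, promyelocyte and neutrophil markers were higher in leukemic replicate 1. The summed signal of 5 promyelocyte markers was 64146 in leukemic replicate 1 and 18987 in replicate 2, and that of 10 neutrophil markers 398671 and 234054. Sums were also higher for monocyte and macrophage (6666 and 5422), B and plasma cell (2362 and 1576), T and NK cell (1693 and 902) and megakaryocyte markers (3205 and 2576). They were lower in replicate 1 for erythroid (52255 and 70305), mast cell and basophil (61245 and 73161) and stem and progenitor markers (42235 and 43740). The 2 arrays give no test of this, and the part of a different cell mixture was not tested.

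Between the groups the marker lists differed as well. The counts are descriptions, to be read beside the 27.5% of all tested genes that rose and the 15.9% that fell. Some markers were above the filter only through the group where they are high, so these counts are not separate from the filter. Among them are Adgrg1, Sox4, Mecom and Angpt1, high in leukemic marrow, and Fcgr1, Igha, Jchain and Cd3d, high in mature cells. Itgam, which encodes the CD11b used to choose the mature cells, is 1 of the neutrophil markers that fell. Of 9 tested monocyte and macrophage markers 9 fell, with a summed signal of 5422 to 6666 in leukemic and 27313 to 46156 in mature marrow. Of 10 neutrophil markers 5 fell and none rose (234054 to 398671 against 317856 to 398792), and of 5 promyelocyte markers none passed (18987 to 64146 against 31125 to 56484). All 10 stem and progenitor markers rose (42235 to 43740 against 2528 to 3521), as did 6 of 7 tested erythroid markers (52255 to 70305 against 3996 to 7680) and 5 of 6 mast cell and basophil markers (61245 to 73161 against 10761 to 13644). Of 6 tested B and plasma cell markers 3 fell (1576 to 2362 against 7205 to 21611), of 5 megakaryocyte markers 1 rose (2576 to 3205 against 865 to 920), and of 3 tested T and NK cell markers 1 fell (902 to 1693 against 1719 to 2091). No marker was at 0. Igha and Cd3g were below a signal of 16 on both leukemic arrays and Mecom on both mature arrays. Ly6g and Retnlg had no probe set naming them here. The part of these cell types in the changes of the members was not tested.

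The genes most like each member over the 4 arrays were found as the smallest Euclidean distance between log2(signal + 16) values centred by gene. For Cebpb this was Dusp1, an immediate early phosphatase gene, with signals of 1969 and 1004 against 26441 and 19308 (distance 0.084). For Cebpd it was Nod1, a sensor of bacterial peptidoglycan (distance 0.075), and for Trib1 H2-Q10, a class I histocompatibility gene (0.31). For Trib2 it was Slc18a2, a vesicular monoamine transporter gene with signals of 1166 and 2236 against 23.2 and 45.0 (0.35), and 6 genes in all lay within 0.5 of it. The nearest gene was Uggt2 for Cebpa (0.15), Foxp2 for Trib3 (0.17) and Cep152 for Cebpg (0.037), where 1820 genes lay within 0.5. With 4 arrays this is a description only.

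C/EBP proteins pair with other basic leucine zipper proteins, and most tested partners that passed fell. The list's median over 17 tested genes was -0.84, and 8 of them fell and 2 rose, against a median of 0.28, 27.5% higher and 15.9% lower over all genes. Counts of this and the other lists are descriptions to be read beside those shares, with no test of any list. Some listed genes, among them Atf3, Batf3, Ptgs2, Il6, Slc7a5, Mycn and Sox4, were above the filter only through the group where they are high. The counts of the lists are thus not separate from the filter. Fos, the AP-1 partner, fell by 5.37 on the log2 scale (695 and 772 on the leukemic against 34786 and 27368 on the mature arrays), Junb gave -3.69, Jun -3.21, the stress-induced factor gene Atf3 -3.03, Batf3 -2.41, Nfil3 -2.13, Nfe2 -1.54 and Atf4 -0.84. The PAR-type factor genes Hlf (3.95) and Tef (1.58) rose. Hlf, known from hematopoietic stem cells, read 2480 and 2738 on the leukemic against 149 and 159 on the mature arrays. Ddit3, which encodes CHOP, a C/EBP relative that blocks DNA binding of its partners, did not pass (-0.21, adjusted p = 0.61), nor did Atf2 (0.35), Atf5 (0.48), Batf (-0.63), Dbp (0.64), Jund (-1.09) or Creb1 (-0.60). The calls of Atf4 (adjusted p = 0.027) and Tef (0.0040) were lost without leukemic replicate 2 (0.14 and 0.058), that of Atf4 also without replicate 1 (0.13), and that of Batf3 (0.013) without leukemic replicate 2 (0.070) or mature replicate 1 (0.066). Without mature replicate 1 Dbp (0.040) and Jund (0.0085) passed. As the mean of its probe sets Atf4 gave -0.40 and was not called (limma adjusted p = 0.26), nor was it called with no variance trend (0.067). The log2 fold change of Tef lay between 0.30 and 1.64 over the alternatives. Scaled to the hybridization controls, 13 of the 17 fell and 1 rose, beside 6104 lower and 1029 higher of 12409 genes in that setting.

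Among the genes through which Tribbles proteins act, some rose and some fell. COP1 is the ligase itself, DET1, DDA1, DDB1, CUL4 and RBX1 build the complex around it, and MEK1 (Map2k1) and AKT kinases bind Tribbles proteins. Of 12 tested genes 4 rose and 3 fell, 58.3% in all beside 43.4% of all genes, with a median of 0.14. Cop1 fell from 6601 and 6158 in the mature to 3527 and 3511 in the leukemic arrays (-0.85, SE 0.22, adjusted p = 0.018), Map2k1 fell (-1.61, adjusted p = 0.0028) and so did Akt1 (-0.90, adjusted p = 0.021). Ddb1 (1.37, adjusted p = 0.0032), Cul4a (1.99, adjusted p = 0.033), Det1 (1.14, adjusted p = 0.016) and Cul4b (0.94, adjusted p = 0.014) rose. Dda1 (0.10), Rbx1 (0.17), Map2k2 (0.11), Akt2 (-0.62) and Acaca (0.79) did not pass, though Acaca did without mature replicate 1 (adjusted p = 0.017). Leaving out either leukemic array lost the calls of Cop1, Akt1, Cul4a, Cul4b and Det1 and left 2 calls, Ddb1 and Map2k1. The split also followed the scaling, with 3 higher and 4 lower after quantile normalization, 2 and 4 with every array at the same median and 0 and 7 with the hybridization controls, where Det1 (-0.15) and Cul4b (-0.38) turned without passing and Ddb1 was at 0.04.

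Among genes that C/EBP proteins are known to switch on, the receptor and adhesion genes were all lower. Of 14 tested granule genes 7 were lower, and the others did not pass. All 11 tested receptor and adhesion genes fell, beside 15.9% of all genes, with a median of -2.65. The interleukin-1 decoy receptor gene Il1r2 fell by 3.51 on the log2 scale (988 and 456 on the leukemic against 7499 and 8198 on the mature arrays). Itgam, which encodes the CD11b used to choose the mature cells, is 1 of the 11 (-3.31), so its call is not separate from that choice. Itgam, Csf3r, Cxcr2, Csf1r and Cd14 are also among the neutrophil or the monocyte and macrophage markers above. Without leukemic replicate 2 the count was 10. Of 14 tested genes on the list of granule genes that depend on C/EBP epsilon 7 fell and none rose (median -1.25). Over all genes 15.9% fell and 27.5% rose. Padi4 (-3.09, adjusted p = 0.0017) and Cd177 (-2.80, adjusted p = 0.0033) fell most. Ltf (-0.34), Camp (0.03), Ngp (0.42), Lcn2 (-0.34), Chil3 (-0.32), Lyz2 (0.08) and Prg2 (-0.94) did not pass. All of these but Prg2 were very bright on every array, the lowest signal being 22416 for Ltf on leukemic replicate 2. Whether signals that bright still follow the amount of RNA was not tested. With the hybridization controls 12 of the 14 fell, beside 6104 of 12409 genes in that setting. Of 10 tested genes on the list of C/EBP-regulated promyelocyte genes 2 fell, Mgst1 (-2.52) and Mcl1 (-1.55), and Cst7 rose (2.03, adjusted p = 0.0026). That was 30% beside 43.4% of all genes, with a median of -0.79. The promyelocyte markers Mpo, Elane, Prtn3, Ctsg and Ms4a3 are on this list and did not pass. That list gave 6 calls without leukemic replicate 1, 1 higher and 5 lower, 1 higher and 4 lower with every array at the same median and 7 lower with the hybridization controls. All 11 receptor genes, all 14 on the granule list and 9 of 10 on the promyelocyte list were higher in leukemic replicate 1 than in replicate 2. Over all tested genes 49.4% were. The 5 promyelocyte markers and the neutrophil markers Ltf, Camp, Ngp, Mmp8, Mmp9, Itgam, Csf3r and Cxcr2 are in these lists. The counts are thus not separate from the marker sums above.

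Of 14 tested inflammatory targets of C/EBP beta and delta, 8 fell and 1 rose, 64.3% in all beside 43.4% of all genes (median -2.00). Ptgs2, the inducible cyclooxygenase gene, read 4.37 and 1.79 on the leukemic against 1330.1 and 2005 on the mature arrays. It fell, but with leukemic signals under the added 16 the size follows the pseudocount (-6.44, with -8.72 to -4.66 over the alternatives). The chemokine gene Cxcl2 fell by 5.05 on the log2 scale. Il6, a cytokine gene that C/EBP beta is named for binding, was the member that rose (3.76, SE 0.61, adjusted p = 0.0033), with signals of 206 and 486 on the leukemic against 19.1 and 1.33 on the mature arrays, and its size too follows the pseudocount (2.39 to 5.53 over the alternatives). Human IL-6 was in the culture that preceded transplantation, and its part in the signal of the mouse gene was not tested. Hp and Lcn2 are also on the granule list. Nos2, Il12b and Arg1 were below the filter.

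Among genes known to act upstream of C/EBP genes, 8 of 17 tested rose and 6 fell, 82.4% in all beside 43.4% of all genes, and the median was 0.46. Gata2, Myb, Meis1, Flt3 and Kit, which rose, are also stem and progenitor markers, so this list is not separate from that one. Gata2 rose (5.95, adjusted p = 1.1e-04), as did Hoxa9 (7.69, and 5.67 as the mean of its probe sets) and Meis1 (2.75, adjusted p = 0.0031), while Klf4 fell (-4.58, adjusted p = 3.9e-04) and Spi1, which encodes the myeloid factor PU.1, fell by 2.69 (adjusted p = 0.0010). Without the probe sets whose suffix marks several matches only 10 of these genes could be tested, with 4 higher and 4 lower. The hybridization controls gave 7 higher and 9 lower of 17. Of 15 cofactors and genes that control C/EBP translation or activity 8 rose and 2 fell, 66.7% in all beside 43.4% of all genes. The median of that list was 0.91. Cdk4 (3.35) and the methyltransferase gene Prmt1 (2.57) rose most, while the acetyltransferase gene Ep300 fell (-1.32). Without leukemic replicate 2 that list had 5 higher and 1 lower, and with the hybridization controls 3 and 5.

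Growth genes that C/EBP alpha is known to hold back were mostly higher where they passed, with 8 of 15 higher and 2 lower, 66.7% in all beside 43.4% of all genes, and a median of 1.59. Trib2 is 1 of the 8 and Sox4 is also a stem and progenitor marker, so the list is not separate from the members or those markers. Mycn rose by a log2 fold change of 8.07 and Sox4 by 6.20, which were 4.05 and 4.35 as the mean of each gene's probe sets, and E2f2 fell (-1.68, adjusted p = 0.0075). With the hybridization controls 7 were higher and 5 lower. Beside Trib3, which did not pass, 10 of 21 tested genes of the ATF4 stress response rose and 2 fell. That was 57.1% in all beside 43.4% of all genes, with a median of 1.15. The serine synthesis gene Phgdh (5.10, adjusted p = 0.0010) and the amino acid transporter gene Slc7a5 (4.40, adjusted p = 6.9e-04) rose, and Chac1 fell (-1.87, adjusted p = 0.014), a call lost without leukemic replicate 2 (0.086), mature replicate 1 (0.061) or mature replicate 2 (0.053). This list had 8 calls without leukemic replicate 2, and with the hybridization controls 5 higher and 9 lower. Over all 10 lists 90 genes passed, and 67 without leukemic replicate 2.

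**Figure D4:**
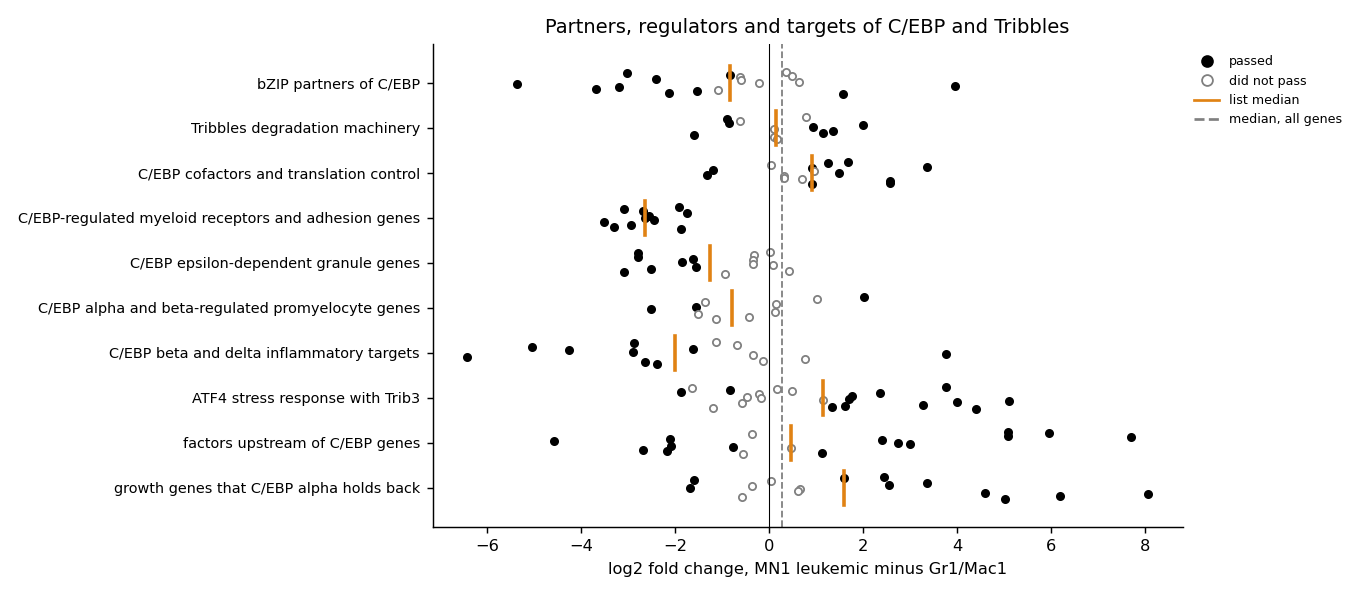
Log2 fold change of each tested gene in 10 lists of partners, regulators and targets of C/EBP and Tribbles proteins, filled where it passed, with the list median in orange and the median of all genes (0.28) dashed. The receptor and adhesion genes lie wholly below 0 (median -2.65), and the lists of stress response and growth genes have medians of 1.15 and 1.59.

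The calls of the members held over most settings. Cebpb (-5.19 to -3.46), Cebpd (-4.70 to -2.22) and Trib1 (-4.75 to -2.66) passed in all 16 alternatives, with an adjusted p of at most 0.011, and Trib2 (3.91 to 5.74) passed in the 15 in which it could be tested, with an adjusted p of at most 0.0078. The smallest Cebpd value is the mean of its probe sets. Scaling to the hybridization controls gave the lowest value of each gene but Trib2, whose lowest was with a pseudocount of 64.

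**Figure D5:**
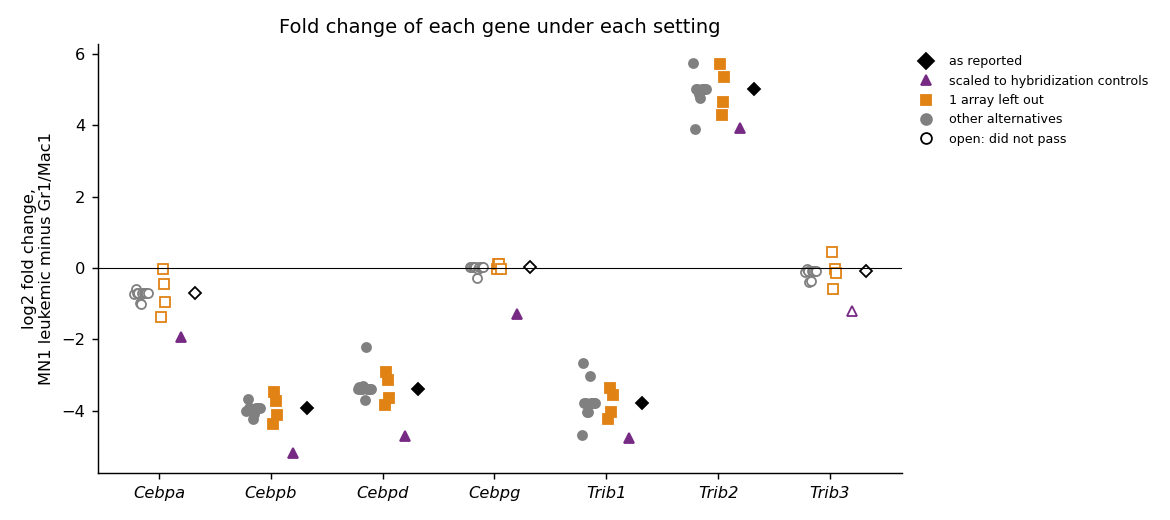
Log2 fold change of each gene as reported (black diamonds), with arrays scaled to the hybridization controls (purple triangles), with 1 array left out (orange squares) and under the other alternatives (grey circles), open where it did not pass. Cebpb, Cebpd, Trib1 and Trib2 stay filled throughout, and Cebpa and Cebpg are filled with the hybridization controls alone.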

How the data were processed

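Total RNA of mouse bone marrow was hybridised to single-colour arrays, 2 of MN1 leukemic and 2 of Gr1/Mac1 marrow. The authors deposited intensity values on a linear scale, and the submitters' processing notes name MAS5 and GCOS 1.3.0. Each array had a trimmed mean of 500.0. Detection calls and probe positions were not used here. The table held 45101 probe sets, 64 of them controls. Symbols came from the platform annotation, with 34945 probe sets naming 1 gene, 932 several and 9160 none here, and 34741 were matched to a RefSeq table of assembly GRCm38.p6, which changed 0 symbols.

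Signals were taken as log2(signal + 16). Probe sets in the lowest 40% by mean signal were removed (27022 kept, lowest mean 47.6), and each gene was read from its brightest kept probe set. The comparison used lmFit and eBayes of limma 3.58.1 (R 4.3.3), two-sided and with a trend of variance on signal. Adjustment was by Benjamini-Hochberg over every gene or every probe set. Of the residual degrees of freedom, 2 came from the arrays and moderation made them 6.90, which the 95% intervals use. The number of arrays limits the precision. The script was tested on simulated data, after 2 earlier set-ups of the simulation, with smaller changes or other noise, had recovered none of the changed probe sets. That test therefore speaks for large changes only.

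The members and lists were chosen with earlier results of these data known, and no list was tested. All members are named, with each tested partner and gene of the Tribbles degradation complex. Each other list gives the 2 largest called changes in its main direction and 1 in the other. Mn1, Itgam, Meis1 and Hoxa9 are named by rule. Added to these, after their values were seen, were Spi1, Eif2s3y, Xist and the genes below the filter. Added likewise were the genes named as shared between lists and those named as not passing in the granule and promyelocyte lists. The genes named as above the filter only through the group where they are high were also added then. Alternatives were pseudocounts of 1 and 64, no filter or the lowest 60% left out, and 3 other scalings (quantile, same median, hybridization controls with the mean factor of each group). Others were each gene as an average over its probe sets, no probe sets with the suffixes _x_at, _s_at and _a_at, a constant prior variance, a robust trend, the replicate number as block and leaving out each array. In the last case 1 array stands alone in its group and is taken to vary as the other group does. Promoter sequences are from RefSeq. Figures were drawn with matplotlib 3.10.9.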

Additional observations from a re-analysis of the deposited data

How the results depend on the processing

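Of the 7 genes, 4 passed under every alternative but 2, with 6 under scaling to the hybridization controls and 3 without the probe sets whose suffix marks several matches, since Trib2 could then not be tested. Over all genes 7133 of 12409 passed with the hybridization controls, 6104 of them lower. Cebpg turned to -0.28 with every array at the same median, -1.28 with the hybridization controls and -0.031 with the mean of its probe sets. With 1 array left out it lay between -0.038 and 0.12, below 0 without leukemic replicate 1 or mature replicate 2. Trib3 lay between -0.59 and 0.44 with 1 array left out, above 0 without leukemic replicate 1. The cause of these changes was not tested. The count of changed genes, 5375 as reported, lay between 2575 and 5441 with 1 array left out, and was 3429 without leukemic replicate 1 and 2575 without leukemic replicate 2. The count of changed probe sets, 9428 as reported, lay between 3470 and 10232 and was 5219 and 3470 without those arrays, and it was 14657 with the hybridization controls, 1707 higher and 12950 lower. With every array at the same median 3876 probe sets were higher and 4746 lower, against 5742 and 3686 as reported and 4794 and 4539 after quantile normalization. Of the members' probe sets 5 to 6 passed with 1 array left out and 10 with the hybridization controls. Pseudocounts of 1 and 64 moved the shift of Cebpa minus Trib1 to 3.94 and 2.08, of Cebpb minus Cebpd to -0.61 and -0.34 and of Trib2 minus Trib1 to 10.4 and 6.56. The mean of each gene's probe sets moved the first to 2.33 and the second to -1.86. The labels number the arrays 1 and 2 in each group without pairing them, and the deviations of same-numbered arrays correlated at -0.03 across 12378 genes. With a replicate block 5562 genes passed and the same 4 members were called, while the promyelocyte list had 7 calls and Jund passed (adjusted p = 0.0069). Dim signals, such as those of Trib1 in leukemic and Trib2 in mature marrow, are where the pseudocount matters most, and MAS5 background limits their precision.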
